A study of Mus musculus with 50 samples.

Results

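The genes described here are the core of MHC class II antigen presentation. Their members were listed by symbol: the invariant chain Cd74, the class II chains H2-Aa, H2-Ab1 and H2-Eb1, the peptide loading factor chains H2-DMa and H2-DMb1, the class II transactivator Ciita and the costimulatory molecule Cd86. All 8 were found among the 45792 genes of the count table, each had reads in every library used, and all 8 passed the filter on low counts in each comparison. RNA was sequenced from liver of C3H/He mice fed a control diet or ALIOS, an American lifestyle diet that produces obesity and fatty liver. All tissue was taken at 48 weeks.

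The 6 groups were 12 non-tumour livers of mice on the control diet (N1 to N12), 11 non-tumour livers of mice on ALIOS (N13 to N23), a single tumour of the control diet without a carcinogen (T7), 12 spontaneous tumours on ALIOS (T2 to T6 and T8 to T14), 5 tumours of mice given the control diet and the liver carcinogen DEN, diethylnitrosamine (T17 to T21), and 8 tumours of mice given ALIOS and DEN (T15, T16 and T22 to T27). Below, the 2 non-tumour groups are called control livers and ALIOS livers, and the tumour groups spontaneous ALIOS tumours, control DEN tumours and ALIOS DEN tumours. The 49 libraries held 23798251 to 45751398 counted read pairs, with a median of 32351263. A further ALIOS tumour, T1, was left out. No group held non-tumour liver of mice given DEN, so carcinogen and tumour tissue cannot be told apart where DEN tumours are compared with livers. On ALIOS, DEN tumours can be set against spontaneous tumours, but on the control diet T7 was the only tumour without DEN. No batch was given for any library.

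Class II molecules carry peptides from ingested proteins to the cell surface, where CD4 T cells read them. The α and β chains assemble in the endoplasmic reticulum on the invariant chain, which blocks the groove and guides the complex to endosomes. There proteases trim the invariant chain, and the DM heterodimer exchanges its last fragment for an antigenic peptide. Dendritic cells, B cells and macrophages make these genes at rest, and interferon gamma can switch them on in other cells, including cells of the liver sinusoid, through Ciita. Ciita binds no DNA itself: it is recruited to an assembly of RFX, CREB and NF-Y factors on the X, X2 and Y boxes in front of class II genes.

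Of the members, 5 lie on mouse chromosome 17 in the MHC region (coordinates are of GRCm38, from Gencode M21). H2-DMa (ENSMUSG00000037649.9) spans chr17:34119541-34139101, H2-DMb1 (ENSMUSG00000079547.3) chr17:34153072-34160230, H2-Ab1 (ENSMUSG00000073421.5) chr17:34257689-34269419 and H2-Eb1 (ENSMUSG00000060586.10) chr17:34305867-34316674, all on the plus strand. Between the last pair lies H2-Aa (ENSMUSG00000036594.12) at chr17:34282744-34287823 on the minus strand. Outside the region, on another chromosome, Ciita (ENSMUSG00000022504.9) spans chr16:10480059-10528418 on the plus strand and Cd86 (ENSMUSG00000022901.11) chr16:36603869-36666081 on the minus strand. Ciita overlaps Dexi, and H2-DMa overlaps Brd2, on the opposite strand, and whether reads of these neighbours were counted with them was not tested.

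RefSeq promoters (GRCm38.p6, 250 bases before to 50 after the annotated start) were available for 4 of the 8 members, H2-Aa, H2-Eb1, H2-DMb1 and H2-DMa. The first 3 are shown because each holds boxes of the kind at which Ciita acts. H2-DMa also moved with Ciita in the values below, but its entries, described under the sequences, are not shown. Capitals mark the Y box and, upstream of it, the X box (H2-Eb1 and H2-DMb1) or the X2 box (H2-Aa).
H2-Aa, chr17:34287774-34288073, minus strand: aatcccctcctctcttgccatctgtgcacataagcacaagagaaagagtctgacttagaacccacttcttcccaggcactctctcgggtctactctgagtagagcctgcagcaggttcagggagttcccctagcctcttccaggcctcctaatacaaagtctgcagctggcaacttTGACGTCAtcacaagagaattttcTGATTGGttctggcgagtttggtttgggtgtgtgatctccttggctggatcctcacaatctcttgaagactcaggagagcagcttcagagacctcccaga
H2-Eb1, chr17:34305617-34305916, plus strand: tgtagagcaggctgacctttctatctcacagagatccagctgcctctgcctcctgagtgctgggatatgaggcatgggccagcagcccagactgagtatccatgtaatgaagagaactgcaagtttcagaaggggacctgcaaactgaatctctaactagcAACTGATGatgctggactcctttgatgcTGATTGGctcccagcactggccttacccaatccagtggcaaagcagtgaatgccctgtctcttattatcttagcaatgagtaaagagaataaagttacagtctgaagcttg
H2-DMb1, chr17:34152941-34153240, plus strand: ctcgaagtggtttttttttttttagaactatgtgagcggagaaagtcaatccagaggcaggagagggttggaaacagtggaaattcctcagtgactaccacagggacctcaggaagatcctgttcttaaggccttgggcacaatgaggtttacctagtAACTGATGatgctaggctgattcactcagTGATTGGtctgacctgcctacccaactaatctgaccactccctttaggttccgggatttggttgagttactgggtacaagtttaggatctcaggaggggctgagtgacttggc
The motifs were searched on both strands: the Y box TGATTGG, the X box AACTGATG and the X2 box TGACGTCA, none of which overlaps another. In H2-Aa the Y box began 50 bases before the annotated start and the X2 box 74 bases before it. In H2-Eb1 the Y box began 61 and the X box 89 bases before the start, and in H2-DMb1 63 and 92 bases. Among 32851 promoters of the same length, 7.82% held the Y box, 0.776% the X box and 1.79% the X2 box, and 33 promoters (0.1%) held a Y box together with an X or X2 box on the strand as read. These letters were not found in either H2-DMa entry. Of the other class II genes, H2-Eb2 held a Y box at 102 and an X box at 130 bases, and H2-DMb2, H2-Oa and H2-Ob held a Y box alone. The letters were chosen after the sequences had been seen, the reference is of another mouse strain (C57BL/6J), and a match is a description only.

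Per kilobase of exon, the scale on which levels of different genes can be set side by side, Cd74 was the most abundant member in 49 of 49 libraries. Its median level over the 49 libraries was 43.8 CPM per kb (CPM being the read count scaled to library size), before H2-Eb1 at 8.37, H2-Aa at 6.06 and H2-Ab1 at 3.72 CPM per kb. H2-DMa at 0.863, H2-DMb1 at 0.716 and Cd86 at 0.631 CPM per kb formed a lower tier, and Ciita, with 0.304 CPM per kb, was the lowest member in 41 of 49 libraries. Every member varied widely: the highest library exceeded the lowest 57.5-fold for H2-Eb1, 53.8-fold for Cd74, 48.2-fold for Ciita and 19.7-fold for Cd86, the narrowest range of the 8. Cd74 took a similar part of the members' summed CPM in each group, with group medians between 53.4% (T7) and 57.6% (control livers).

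A few libraries stood apart and recur below. Control liver N6 had by far the highest Ciita, H2-DMa and H2-DMb1 of its group, whereas N10 was the highest control liver for the other 5 members. Among ALIOS livers, N17 was highest for 7 of 8 members and N13 lowest for 8 of 8. In ALIOS DEN tumours, T24 was highest for 7 of 8 members and T16 lowest for 8 of 8. All levels below are TMM-normalised CPM, and refits of the members without one of these libraries are given in the comparisons they changed most.

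**Figure D1:**
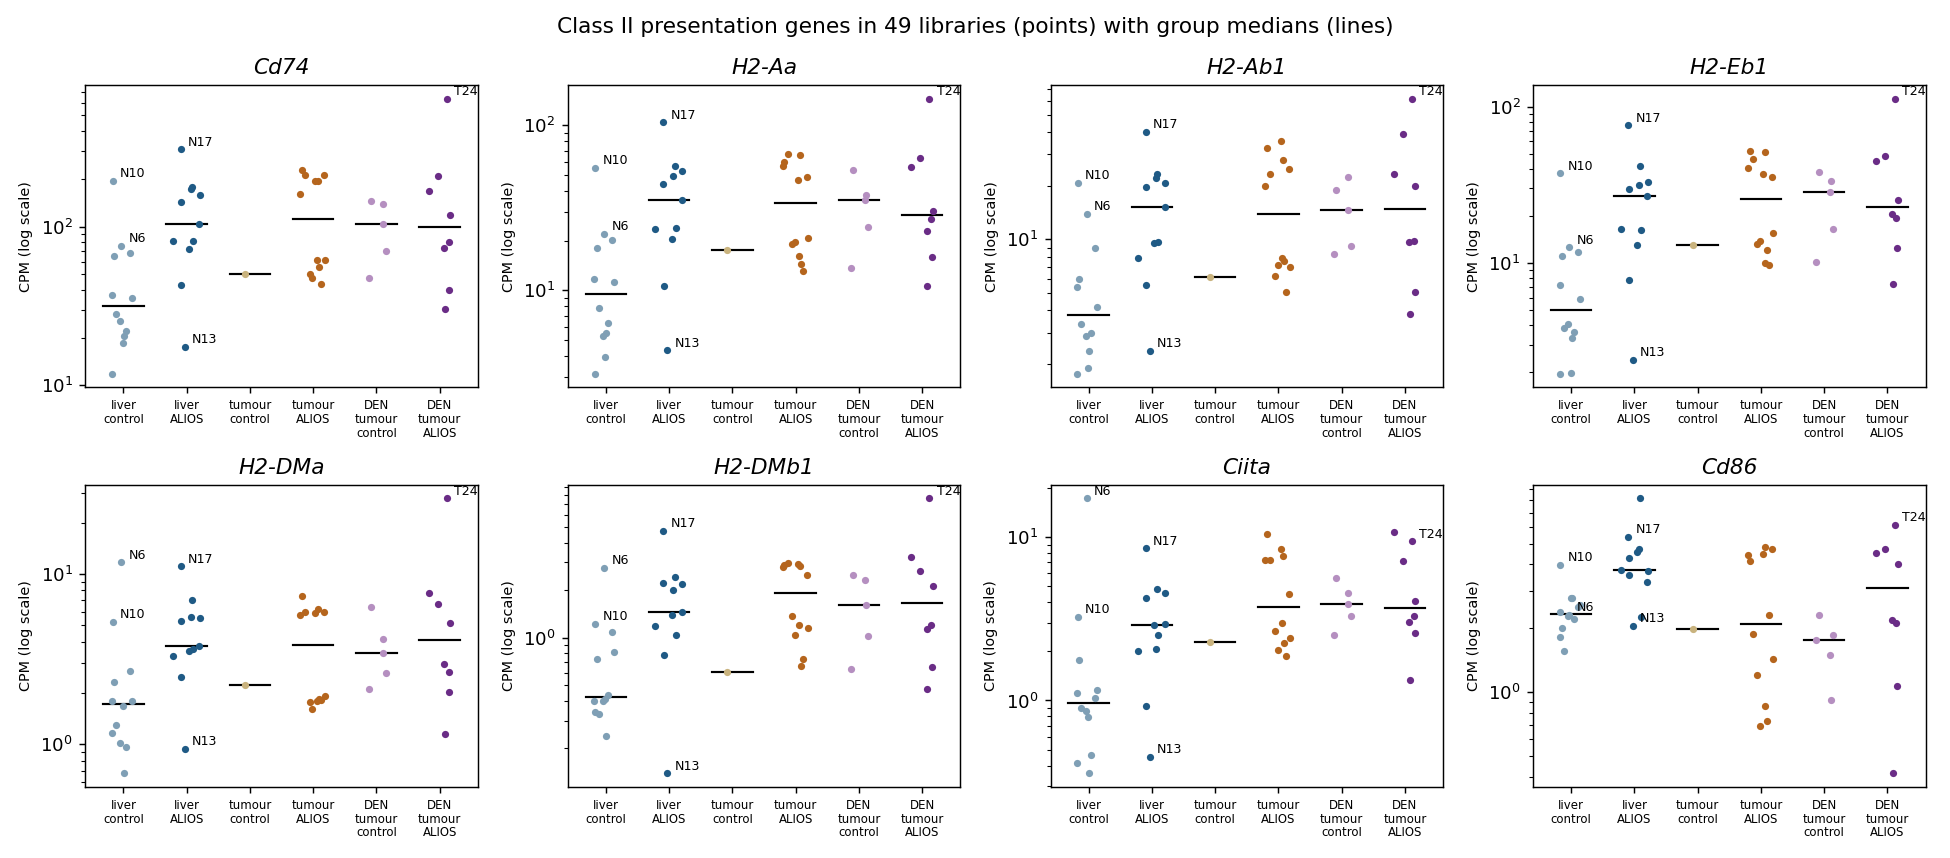
CPM of the 8 members on log axes in each library by group, with bars at the group medians and N6, N10, N13, N17 and T24 marked. Control livers have the lowest median for 7 of the members, Cd86 being the exception, and the ranges of the 5 groups with more than 1 library overlap for every member.

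Cd74 (ENSMUSG00000024610.12), the invariant chain, lies apart from the other members at chr18:60803848-60812652 on the plus strand. It ranged in control livers from 11.9 CPM in N5 to 194 CPM in N10, with a median of 31.7 CPM. In ALIOS livers it ranged from 17.5 CPM in N13 to 307 CPM in N17, with a median of 103 CPM. T7 had 50.1 CPM. The ALIOS livers thus sat mostly in the upper part of the control range, and only N17 exceeded the highest control liver. Spontaneous ALIOS tumours ran from 43.3 CPM (T5) through a median of 111 CPM to 228 CPM (T10), and control DEN tumours held 47.4 (T20), 70.0 (T21), 103 (T18), 140 (T19) and 146 CPM (T17). ALIOS DEN tumours ran from 30.4 CPM (T16) through 98.9 CPM to 638 CPM (T24), far above the next tumour at 208 CPM.

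H2-Aa encodes the α chain of the I-A molecule. Control livers had 3.12 CPM (N5) to 55.3 CPM (N10) with a median of 9.49 CPM, and ALIOS livers 4.32 CPM (N13) to 104 CPM (N17) with a median of 35.3 CPM. The tumour medians were 33.6 CPM (13.1 in T5 to 67.3 in T13) in spontaneous ALIOS tumours, 35.0 CPM (13.6 in T20 to 53.9 in T17) in control DEN tumours and 28.7 CPM (10.6 in T16 to 145 in T24) in ALIOS DEN tumours. T7 had 17.5 CPM, within the range of every group. H2-Ab1, its β chain, showed the same order of livers: a median of 3.77 CPM (1.77 in N5 to 20.8 in N10) on the control diet and 15.2 CPM (2.37 in N13 to 40.1 in N17) on ALIOS. Its tumour medians were 13.9 CPM (5.05 in T5 to 35.6 in T3), 14.7 CPM (8.26 in T20 to 22.3 in T19) and 14.9 CPM (3.82 in T16 to 61.5 in T24), and T7 had 6.14 CPM. These 3 tumour medians lie far closer together than the libraries of any 1 group.

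H2-Eb1, the β chain of the I-E molecule, had the widest gap between the liver groups. Its median was 4.98 CPM in control livers (1.96 in N5 to 37.4 in N10) and 26.7 CPM in ALIOS livers (2.4 in N13 to 76.2 in N17). It was 25.6 CPM in spontaneous ALIOS tumours (9.76 in T5 to 52.5 in T10), 28.6 CPM in control DEN tumours (10.1 in T20 to 38.0 in T17) and 22.96 CPM in ALIOS DEN tumours (7.29 in T16 to 113 in T24). With 12.98 CPM, T7 lay above all control livers but N10. The partner of this chain is annotated as a pseudogene, H2-Ea-ps, because C57BL/6 mice carry a defective copy, while C3H mice are of an MHC haplotype with an intact one. Reads at H2-Ea-ps were counted in every library, with a median of 5.55 CPM in control livers (1.13 in N5 to 27.1 in N10) and 19.8 CPM in ALIOS livers (2.26 in N13 to 52.7 in N17). How far sequence differences between the strains changed the counts of the H2 genes was not tested.

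H2-DMa and H2-DMb1 form the DM heterodimer that loads peptides. H2-DMa had a median of 1.73 CPM in control livers (0.675 in N12 to 11.7 in N6, the next being N10 at 5.22) and 3.78 CPM in ALIOS livers (0.941 in N13 to 11.1 in N17). Its medians in the tumour groups were 3.82 CPM (1.61 in T4 to 7.46 in T10), 3.41 CPM (2.12 in T20 to 6.36 in T17) and 4.08 CPM (1.15 in T16 to 27.7 in T24), and T7 had 2.23 CPM. For this gene the highest control liver, N6, slightly exceeded the highest ALIOS liver. H2-DMb1 was the member with the fewest reads, 4 to 428 per library, with a median of 0.423 CPM in control livers (0.238 in N12 to 2.78 in N6) and 1.46 CPM in ALIOS livers (0.139 in N13 to 4.75 in N17). Its tumour medians were 1.93 CPM (0.668 in T8 to 2.98 in T13), 1.60 CPM (0.636 in T20 to 2.50 in T17) and 1.67 CPM (0.478 in T16 to 7.60 in T24), with 0.608 CPM in T7. Its neighbour H2-DMb2 is nearly identical in sequence, so that some reads of the pair may have been assigned to the other gene or to neither.

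Ciita, the transactivator, had a median of 0.962 CPM in control livers, from 0.358 CPM in N12 to 17.2 CPM in N6, and the next control liver, N10, had 3.24 CPM. In ALIOS livers the median was 2.90 CPM (0.453 in N13 to 8.52 in N17). No ALIOS liver reached N6, and without N6 the highest control liver would lie just above the ALIOS median. Spontaneous ALIOS tumours had a median of 3.74 CPM (1.88 in T5 to 10.5 in T10), control DEN tumours of 3.89 CPM (2.51 in T20 to 5.60 in T17) and ALIOS DEN tumours of 3.68 CPM (1.34 in T16 to 10.8 in T26). T7 had 2.29 CPM. Every tumour thus exceeded the control median, and the control DEN tumours lay inside the wider ranges of the other tumour groups.

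Cd86, which gives T cells their second signal through CD28, behaved unlike the other 7. Control livers had 1.56 CPM (N2) to 3.96 CPM (N10) with a median of 2.34 CPM, and ALIOS livers 2.06 CPM (N13) to 8.15 CPM (N19) with a median of 3.74 CPM. Spontaneous ALIOS tumours had a median of 2.08 CPM (0.695 in T4 to 4.82 in T11) and were split, with 5 of 12 (T2, T3, T6, T10 and T11) above the highest control liver. Control DEN tumours had 0.919 (T18), 1.49 (T19), 1.76 (T20), 1.85 (T21) and 2.31 CPM (T17), all under the control liver median. ALIOS DEN tumours had a median of 3.10 CPM (0.414 in T16 to 6.14 in T24), and T7 had 1.97 CPM.

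Ordered by median, control livers were lowest and T7 next for Cd74, H2-Aa, H2-Ab1, H2-Eb1, H2-DMa, H2-DMb1 and Ciita, and the other 4 groups followed in an order that changed from gene to gene. Within those 4 groups neighbouring medians differed by less than the spread inside each group. For Cd86 the order was control DEN tumours, T7, spontaneous ALIOS tumours, control livers, ALIOS DEN tumours and ALIOS livers, and neighbours again overlapped.

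The spontaneous ALIOS tumours did not fill their range evenly. For Cd74, H2-Aa, H2-Ab1, H2-Eb1, H2-DMa and H2-DMb1, T4, T5, T8, T9, T12 and T14 lay below a gap, and T2, T3, T6, T10, T11 and T13 above it. For Cd74 the gap ran from 61.2 to 161 CPM, for H2-Aa from 20.6 to 46.6 CPM and for H2-Eb1 from 15.6 to 35.6 CPM. T2 moved to the lower side for Ciita, where the gap ran from 4.51 to 7.21 CPM, and T13 for Cd86, where it ran from 2.29 to 4.13 CPM. The tumours of the DEN groups had values inside these gaps, such as T18 with 103 CPM and T25 with 118 CPM of Cd74. Immune cell markers differed between the sides that Cd74 gave, with little overlap except for macrophages. Summed dendritic cell markers were 16.2 to 21.7 CPM below the gap and 21.1 to 32.1 CPM above it, T cell markers 3.001 to 6.498 and 6.30 to 17.5 CPM, B cell markers 2.73 to 5.27 and 5.16 to 9.98 CPM, and macrophage markers 91.6 to 372 and 270 to 744 CPM. Summed hepatocyte markers had medians of 188000 CPM below and 134000 CPM above, and T2, T6 and T3, on the upper side, lay under every tumour of the lower side. Most of that sum was Alb, with a mean of 128424 CPM in this group. ALIOS livers had less Alb, 60913 CPM in N17 and 47627 to 102139 CPM in the others, so a low sum need not mean fewer hepatocytes. Cyp2e1, of the same list, was at 2680, 1549 and 1448 CPM in T2, T6 and T3, against a group median of 256 CPM. It was at 322, 38.5 and 4.62 CPM in T10, T11 and T13, also on the upper side, and at 1828 CPM in T5 of the lower side. Endothelial markers had medians of 212 and 261 CPM, and kidney markers, the other way round, of 7.77 and 1.63 CPM. The part of these cells in the gap was not tested.

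In some genes, picked after their values had been seen, a few of these tumours lay nearer to ALIOS livers than most others did. Cd40, with a median of 0.546 CPM in ALIOS livers and 9.52 CPM in the tumours, was at 1.13 CPM in T2 and 1.72 CPM in T6, above the gap, and at 1.71 CPM in T5, below it. T14, below the gap, had 4.655 CPM and T3, above it, 6.255 CPM. Ifngr1, with medians of 18.8 and 51.6 CPM, was at 18.9 CPM in T2, 23.6 CPM in T6, 35.6 CPM in T3 and 38.3 CPM in T5. The hepatocyte gene Cyp2e1 had a median of 5608 CPM in the livers and 256 CPM in the tumours. It was at 2680 CPM in T2, 1549 CPM in T6, 1448 CPM in T3 and 1828 CPM in T5. The macrophage marker Clec4f, with medians of 124.5 and 24.93 CPM, was at 137.6 CPM in T2, 109.5 CPM in T3, 94.07 CPM in T6 and 72.58 CPM in T5. How much non-tumour liver each tumour sample held was not tested.

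The first comparison, ALIOS against control livers, asks what the diet did to tissue outside tumours. Class II genes were higher in most ALIOS livers: for Cd74, H2-Aa, H2-Ab1, H2-Eb1, H2-DMa and H2-DMb1, 10 of 11 ALIOS livers exceeded the control median, N13 being the exception. For Ciita and Cd86 it was 9 of 11, with N13 and N23 below for Ciita and N13 and N15 for Cd86. The ALIOS median was 5.36-fold the control median for H2-Eb1, 4.02-fold for H2-Ab1, 3.72-fold for H2-Aa, 3.25-fold for Cd74 and 1.60-fold for Cd86. The groups overlapped all the same, with 5 ALIOS livers above every control liver for Cd86, 3 for H2-Ab1, 2 each for H2-Aa and H2-Eb1, 1 each for Cd74 and H2-DMb1, and 0 for H2-DMa and Ciita.

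At an adjusted p under 0.05 in edgeR, 4 of the 8 members were higher on ALIOS and 0 lower, against 6.73% of all 13723 genes tested that were higher and 4.51% that were lower. The 4 were H2-Eb1 (log2 fold change 1.62, SE 0.49, adjusted p = 0.0354), H2-Ab1 (1.36, SE 0.44, adjusted p = 0.0458), H2-Aa (1.44, SE 0.47, adjusted p = 0.0481) and Cd86 (0.76, SE 0.19, adjusted p = 0.0128). Cd74 (1.29, SE 0.44, adjusted p = 0.0560) and H2-DMb1 (1.21, SE 0.42, adjusted p = 0.0630) missed the threshold narrowly, H2-DMa (0.80, SE 0.42, adjusted p = 0.214) and Ciita (0.39, SE 0.58, adjusted p = 0.693) by more. The median log2 fold change was 1.25 over the members and -0.02 over all genes. In bulk tissue, more cells of a type and more RNA per cell cannot be told apart.

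How many members passed depended on single livers. Without N6, 7 of 8 passed: Ciita rose by 1.57 (adjusted p = 0.0155), H2-DMa by 1.34 (adjusted p = 0.0148) and H2-DMb1 by 1.62 (adjusted p = 0.0100), with Cd74 at 1.36 (adjusted p = 0.0509). Without N13, 6 passed, among them Cd74 at 1.41 (adjusted p = 0.0244), and without N9, N10 or N23, 5 passed. Genes called among all those tested also varied, from 949 without N17 to 2343 without N13. Member counts of different refits thus stand against different shares of all genes, which are not given for each refit. With all libraries 923 were higher and 619 lower. Without N17, only Cd86 passed, and H2-Eb1 stood at 1.31 (adjusted p = 0.0925). Cd86 alone also passed without N1, N2, N3, N4, N7, N11, N12, N18, N19 or N22, 2 members passed without N5, N8 or N20, 3 without N15 or N16, and 4 without N14 or N21. Across the 23 such refits Cd86 passed in 23, H2-Eb1 in 12, H2-Ab1 in 9, H2-Aa in 7, Cd74 in 4, H2-DMb1 in 2, and H2-DMa and Ciita in 1 each. Over these refits and the other settings tried, the adjusted p ranged from 0.00210 to 0.169 for Cd86, from 0.00428 to 0.0925 for H2-Eb1, from 0.00622 to 0.134 for Cd74, from 0.0148 to 0.403 for H2-DMa, from 0.0100 to 0.156 for H2-DMb1 and from 0.0155 to 0.913 for Ciita. DESeq2, which called more genes in all than edgeR, called 6 members, adding Cd74 (adjusted p = 0.0332) and H2-DMb1 (adjusted p = 0.0319). Without a filter on low counts only H2-Eb1 and Cd86 passed, and with all 6 groups fitted together only H2-Eb1 (adjusted p = 0.0403).

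**Figure D2:**
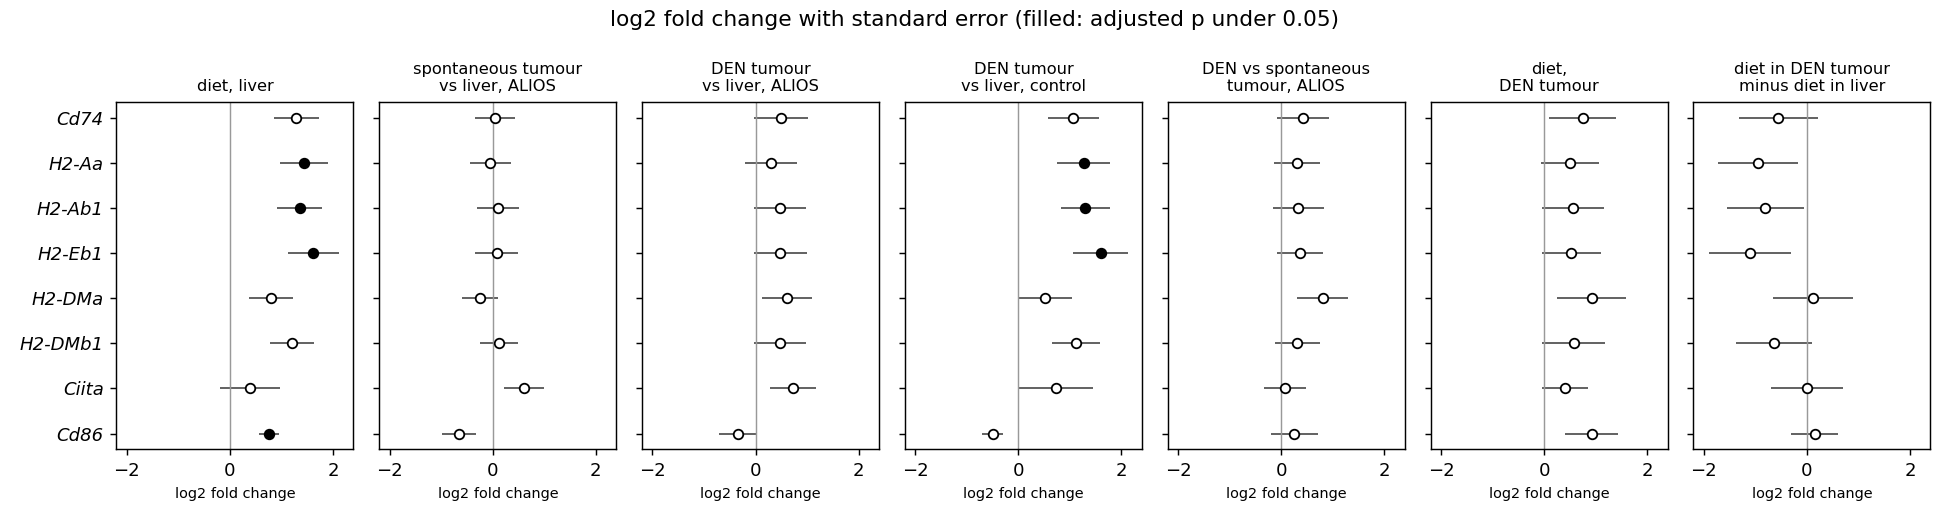
Log2 fold change (points) with its standard error (bars) of the 8 members in the 7 comparisons, filled where the adjusted p of edgeR was under 0.05. H2-Aa, H2-Ab1 and H2-Eb1 are filled for diet in non-tumour liver and for control DEN tumours against control livers, and Cd86 for diet in non-tumour liver.

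Some other genes of the pathway were also higher on ALIOS. List counts here and in the next paragraphs are to be read against 6.73% of all genes higher and 4.51% lower. Of 7 antigen processing genes, 5 rose and 0 fell: the cathepsins Ctsb (0.38, SE 0.07, adjusted p = 0.00324), Ctsd (0.42, SE 0.10, adjusted p = 0.00914) and Ctss (1.01, SE 0.25, adjusted p = 0.0122), of which cathepsin S is the protease that trims the invariant chain, and the thiol reductase Ifi30 (0.62, SE 0.15, adjusted p = 0.0123) were those with the smallest p. Ctsl, the most abundant of the list, stood at 0.15 (adjusted p = 0.428). Of the other class II chains and loading genes, H2-Ea-ps rose (1.47, SE 0.44, adjusted p = 0.0339), 1 of 3 tested. The list of class II turnover gave 2 of 3 higher: March1, a ubiquitin ligase that sends class II molecules and Cd86 to degradation (0.82, SE 0.23, adjusted p = 0.0226), and Cd83, which opposes it (1.14, SE 0.32, adjusted p = 0.0227). Costimulation and checkpoint genes gave 1 of 6 higher, Cd80 (1.08, SE 0.33, adjusted p = 0.0348), the sister of Cd86. Lag3, a T cell receptor for class II, stood at -0.32 (adjusted p = 0.325).

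Of 14 class II transcription genes tested, 2 were higher and 0 lower: Spi1, which encodes the myeloid factor PU.1 (0.92, SE 0.23, adjusted p = 0.0147), and the interferon gamma receptor chain Ifngr1 (0.25, SE 0.08, adjusted p = 0.0457). The list's median log2 fold change was -0.07. Ifng itself had too few reads to be tested. Among 10 MHC class I genes, H2-D1 (0.62, SE 0.17, adjusted p = 0.0224) and H2-K1 (0.42, SE 0.13, adjusted p = 0.0442) rose and 0 fell, and their light chain B2m stood at 0.30 (adjusted p = 0.0589).

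Of the cells that present antigen, macrophages had most of their markers higher in ALIOS livers, dendritic and B cells only some. Of 15 macrophage markers 11 were higher and 0 lower, led by C1qb (0.90, SE 0.18, adjusted p = 0.00520), and their summed level had a median of 648 CPM against 400 CPM in control livers, Cd5l being the most abundant. Of 5 dendritic cell markers tested 2 were higher, Itgax (2.59, SE 0.50, adjusted p = 0.00398) and Fscn1 (0.55, SE 0.18, adjusted p = 0.0440), while their most abundant marker Zbtb46 stood at -0.09 (adjusted p = 0.557). Their summed medians were 14.3 and 10.7 CPM. Of 4 B cell markers tested, Bank1 (0.83, SE 0.19, adjusted p = 0.00795) and Cd22 (1.03, SE 0.24, adjusted p = 0.0101) were higher, with summed medians of 6.18 and 4.199 CPM.

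T cell markers, the other side of the contact, gave 3 of 4 tested higher: Cd3e (1.84, SE 0.38, adjusted p = 0.00520), Cd3g (1.82, SE 0.41, adjusted p = 0.00821) and Lck (1.17, SE 0.35, adjusted p = 0.0346). Cd3e ranged from 0.0376 CPM (N5) through a median of 0.162 CPM to 0.463 CPM (N10) in control livers and from 0.174 CPM (N13) through 0.592 CPM to 2.01 CPM (N17) in ALIOS livers, so that 11 of 11 ALIOS livers exceeded the control median. Cd4, whose product is the class II coreceptor of helper T cells and which some dendritic cells also carry, stood at -0.18 (adjusted p = 0.713). Of 8 endothelial markers 1 was lower, Stab1 (-0.25, SE 0.08, adjusted p = 0.0423), with summed medians of 243 and 240 CPM. The 10 hepatocyte markers had adjusted p from 0.338 to 0.931, with Alb at -0.14 (adjusted p = 0.581). The kidney markers, included because of T1, had too few reads in either liver group to be tested. In N13, the ALIOS liver lowest in all members, the summed macrophage, dendritic, B cell and T cell markers were also the lowest of the ALIOS livers, at 376, 10.4, 3.31 and 4.01 CPM. The part of these cells in the class II levels was not tested.

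**Figure D3:**
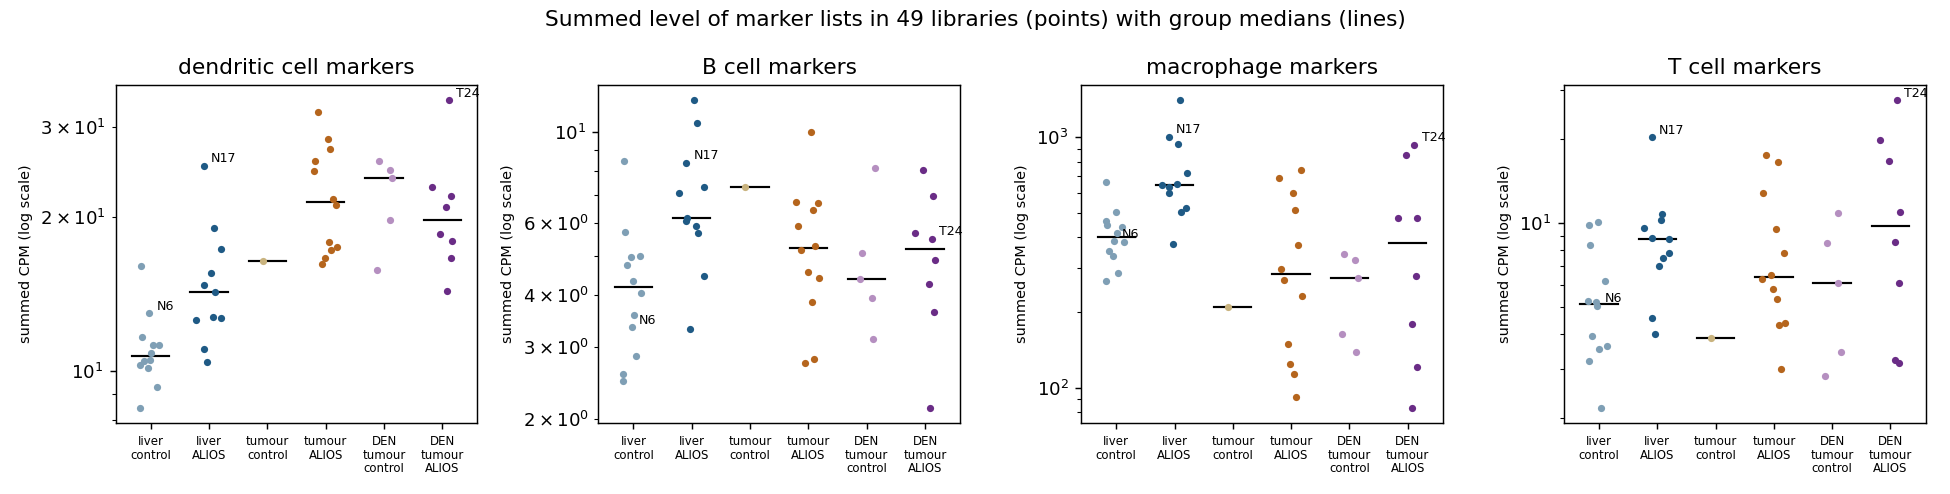
Summed CPM of dendritic cell, B cell, macrophage and T cell markers in each library by group, with bars at the medians. Dendritic cell markers have their highest medians in tumours, 21.4 CPM in spontaneous ALIOS and 23.8 CPM in control DEN tumours, whereas macrophage markers have theirs in ALIOS livers, 648 CPM.

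N6 requires a description of its own, in which the genes were chosen after their values had been seen. Its Ciita of 17.2 CPM was 19.3 times the median of the other 11 control livers, its H2-DMa of 11.7 CPM 6.97 times and its H2-DMb1 of 2.78 CPM 6.74 times. Its Cd74 (75.8 CPM), H2-Aa (22 CPM), H2-Ab1 (13.9 CPM) and H2-Eb1 (12.6 CPM) were the second highest of the group after N10, and its Cd86 (2.31 CPM) was at the middle of the group. Irf1, an interferon-induced transcription factor, stood at 162 CPM against 21.2 to 39.2 CPM in the others, and Cd274, which encodes the checkpoint ligand PD-L1, at 63.1 CPM against 1.27 to 3.41 CPM. N6 thus combined the highest Ciita and DM chains of its group with class II chains inside the group's range.

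By list, N6 exceeded all other control livers in 7 of 10 MHC class I genes, 4 of 15 class II transcription genes, 3 of 8 members, 2 of 10 costimulation and checkpoint genes and 1 of 5 other class II genes. No share of all genes in which N6 was highest is available to set beside these counts, which only describe this liver. Psmb9, of the immunoproteasome, reached 205 CPM against at most 39.0 CPM, and the peptide transporter Tap1 126 CPM against at most 20.2 CPM. It was highest in 1 of 15 macrophage markers, 1 of 10 dendritic cell markers, 1 of 10 T cell markers and 0 of the antigen processing, turnover, B cell, endothelial and hepatocyte markers. Ifng was at 0.368 CPM, while the other control livers had 0 to 0.114 CPM. Without N6, the ALIOS diet raised 7 of 10 MHC class I genes, against 2 with it, and the median of the class II members was 1.53. Cd274 then rose by 0.94 (adjusted p = 0.00512), against -0.81 (adjusted p = 0.392) with it. H2-DMb2 also passed without N6 (1.30, adjusted p = 0.0198), which makes 2 of 3 other class II genes higher. Ifngr1 (adjusted p = 0.0629) and the macrophage marker Cx3cr1 (adjusted p = 0.0597) no longer did, which leaves 1 of 14 class II transcription genes and 10 of 15 macrophage markers. The share of all genes higher in the fit without N6 is not given here, so these counts only describe that fit. Over the 23 refits without a liver, 949 to 2343 genes were called in either direction. The 6.73% given above is of the fit with N6. For both genes that overlap a member on the other strand, N6 was the second highest control liver. Dexi had 22.6 CPM in N6, against a control median of 15.8 CPM and a highest control liver at 24.6 CPM. Brd2 had 102 CPM, against a median of 90.0 CPM and a highest control liver at 117 CPM.

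**Figure D4:**
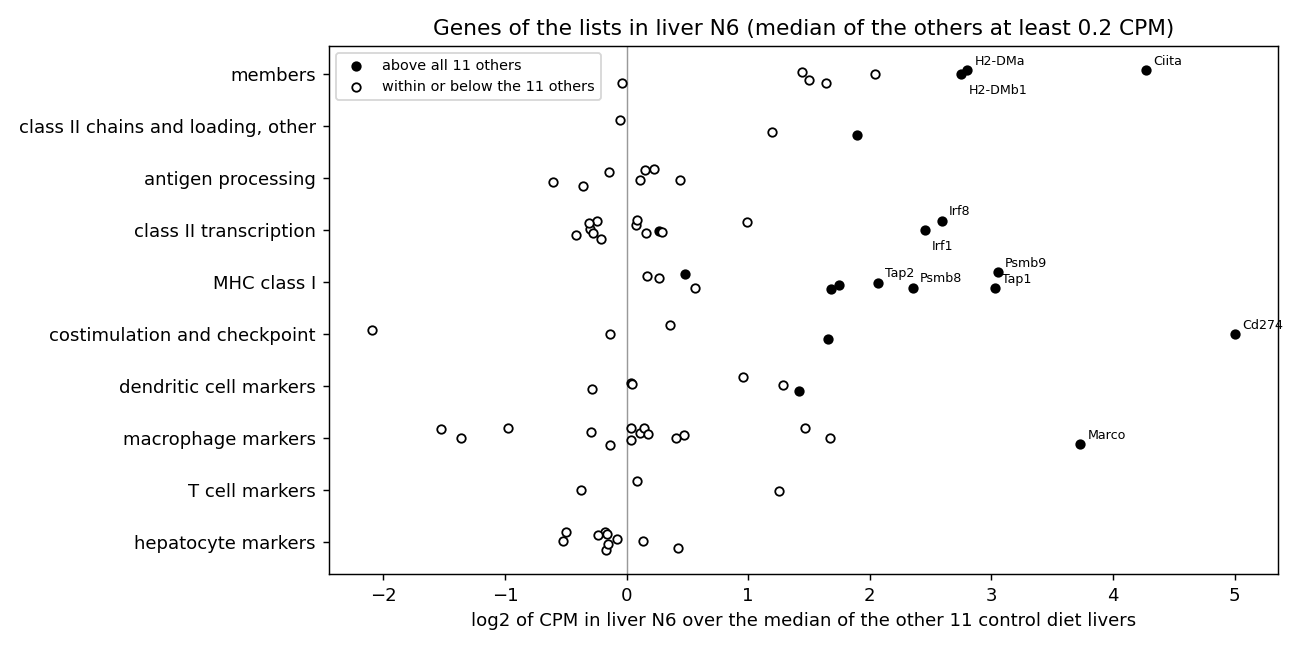
Log2 ratio of N6 to the median of the other 11 control livers for each gene of the lists with a median of at least 0.2 CPM there, by list, filled where N6 lay above all 11. MHC class I genes hold the most filled points, 7 of those drawn, before class II transcription genes and the members with 3 each, the filled members being Ciita, H2-DMa and H2-DMb1.

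Spontaneous ALIOS tumours were compared with ALIOS livers to ask what the tumour changed on the same diet. The members did not move as a group: 6 of 12 tumours exceeded the ALIOS liver median for Cd74, H2-Aa, H2-Ab1, H2-Eb1, H2-DMa and H2-DMb1, those above the gap described earlier, 7 of 12 for Ciita and 5 of 12 for Cd86. In edgeR 0 of 8 members passed in either direction and 0 had an unadjusted p under 0.05, while 26.9% of 14183 genes were higher and 25.9% lower; DESeq2 also called 0 members. Cd74 stood at 0.05 (SE 0.39, adjusted p = 0.934) and H2-Eb1 at 0.08 (SE 0.42, adjusted p = 0.895). Ciita had the largest positive value, 0.61 (SE 0.39, adjusted p = 0.188). Cd86 had the largest negative one, -0.65 (SE 0.33, adjusted p = 0.105), and 6 of 12 tumours lay below the lowest ALIOS liver for it. The median over the members was 0.06, against 0.01 over all genes. Without N17, Cd74 stood at 0.28, H2-Eb1 and H2-DMb1 at 0.38 and Ciita at 0.87 (adjusted p = 0.0559), and without N13, Cd74 stood at -0.08 and H2-Eb1 at -0.05, but 0 members passed in any of 23 refits. What difference could have been detected at the spread of these tumours was not tested, and a p above the threshold does not show that the levels were equal.

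Single genes around the members changed in these tumours, in lists to be read against the 26.9% of all genes that were higher and the 25.9% that were lower. Among 7 costimulation and checkpoint genes tested, Cd40, through which helper T cells signal to presenting cells, rose by 3.70 (SE 0.44, adjusted p = 6.34e-07) and Icosl by 1.93 (SE 0.25, adjusted p = 1.73e-06), and 0 fell. Cd40 had a median of 0.546 CPM in ALIOS livers (0.174 in N13 to 1.62 in N17) and of 9.52 CPM in the tumours (1.13 in T2 to 13.2 in T13). Of 14 class II transcription genes 5 rose and 0 fell, led by Ifngr1 (1.39, SE 0.20, adjusted p = 4.24e-06), Ifngr2 (0.52, SE 0.12, adjusted p = 0.000633), Nfya (0.37, SE 0.08, adjusted p = 0.000713) and Rfx5 (0.30, SE 0.09, adjusted p = 0.00532), the last pair being subunits of NF-Y and RFX. Antigen processing genes went both ways, with 2 of 7 higher, among them Ctsz (0.46, SE 0.13, adjusted p = 0.00351), and 3 lower, among them Ctsl (-0.77, SE 0.17, adjusted p = 0.000537). March8, a ubiquitin ligase of class II molecules, fell (-0.60, SE 0.10, adjusted p = 2.27e-05), 1 of 3 turnover genes. Of 3 other class II genes 0 passed, and H2-Ea-ps stood at -0.05 (adjusted p = 0.932).

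MHC class I genes were mixed, with 2 of 10 higher and 3 lower. Nlrc5, the class I counterpart of Ciita, rose (1.13, SE 0.17, adjusted p = 1.21e-05), and Psmb9 fell (-0.70, SE 0.18, adjusted p = 0.00205). Macrophage markers gave 0 of 15 higher and 11 lower, with the Kupffer cell markers Timd4 (-1.44, SE 0.39, adjusted p = 0.00316), Vsig4 (-1.47, SE 0.41, adjusted p = 0.00409) and Clec4f (-1.47, SE 0.45, adjusted p = 0.00930) among them, and their summed median was 284 CPM against 648 CPM. Dendritic cell markers gave 3 of 8 higher and 0 lower, Fscn1 (0.81, SE 0.18, adjusted p = 0.000733), Cd209a (1.36, SE 0.35, adjusted p = 0.00230) and Zbtb46 (0.41, SE 0.11, adjusted p = 0.00350), with summed medians of 21.4 and 14.3 CPM.

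Of 4 B cell markers tested Bank1 fell (-1.08, SE 0.27, adjusted p = 0.00199). Of 7 T cell markers Cd8a rose (1.27, SE 0.45, adjusted p = 0.0194) and Cd4 fell (-1.83, SE 0.41, adjusted p = 0.000649), from a median of 2.54 CPM in ALIOS livers (1.65 in N19 to 5.85 in N21) to 0.561 CPM in the tumours (0.1001 in T8 to 3.04 in T13). Lag3 stood at -0.36 (adjusted p = 0.352). Endothelial markers gave 3 of 8 higher and 1 lower, and hepatocyte markers 2 of 10 higher, with Alb at 0.79 (adjusted p = 0.00247), and 5 lower, with Cps1 at -1.33 (adjusted p = 1.31e-06). The part of these shifts in the class II values was not tested.

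ALIOS DEN tumours were set against the same ALIOS livers, so the values of these 2 comparisons share their reference livers. Of 8 tumours, 3 exceeded the ALIOS liver median for H2-Aa and H2-Eb1, 4 for Cd74, H2-Ab1, H2-DMa, H2-DMb1 and Cd86, and 6 for Ciita. Again 0 of 8 members passed in edgeR and 0 had an unadjusted p under 0.05, against 27.7% of 14434 genes that were higher and 19.8% lower, and DESeq2 called 0 members. The values ran from -0.34 for Cd86 (SE 0.37, adjusted p = 0.456) to 0.73 for Ciita (SE 0.44, adjusted p = 0.184), with Cd74 at 0.50 (SE 0.52, adjusted p = 0.449). The members' median was 0.48, that of all genes 0.08. T24 alone lay above all ALIOS livers for 6 of the members, and with T26 for Ciita. Without T24 the class II chains, Cd74 and the DM chains stood near or below 0, from -0.21 for Cd74, -0.20 for H2-Aa and -0.16 for H2-DMa to 0.05 for H2-Ab1, with Ciita at 0.56 and Cd86 at -0.55, so the positive median rests on that tumour. Without N17 the values were higher, such as Cd74 at 0.72 and Ciita at 0.96 (adjusted p = 0.0673), and 0 members passed in any of 19 refits.

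T24 was the ALIOS DEN tumour highest in Cd74 (638 CPM, 7.97 times the median of the other 7), H2-DMa (27.7 CPM, 9.31 times) and H2-Ab1 (61.5 CPM, 6.25 times). It also exceeded the other 7 tumours in 9 of 10 T cell markers, 9 of 15 macrophage markers, 7 of 10 dendritic cell markers and 2 of 10 B cell markers. It did so in 0 of 8 endothelial and 1 of 10 hepatocyte markers, and its summed hepatocyte markers were the lowest of the group at 83502 CPM, against a median of 178120 CPM. Its Alb, at 59215 CPM, was within the range of ALIOS livers (47627 to 102139 CPM). Its Cps1, at 3.48 CPM, was far below theirs (2235 CPM in N17, at least 2631 CPM in the others). N17, the highest ALIOS liver, likewise exceeded the other 10 in 9 of 10 T cell and 4 of 10 dendritic cell markers, but in 2 of 15 macrophage and 0 of 10 B cell markers. No share of all genes in which T24 or N17 was highest is available to set beside these counts, which only describe the 2 libraries. These libraries were picked out after their values had been seen, and the part of those cells in their class II levels was not tested.

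The list counts of ALIOS DEN tumours are to be read against the 27.7% of all genes higher and 19.8% lower, and several lie near those shares. ALIOS DEN tumours showed 6 of 14 class II transcription genes higher and 0 lower, led by Ifngr1 (1.73, SE 0.20, adjusted p = 1.54e-06). Cd40 (4.01, SE 0.44, adjusted p = 8.53e-07) and Icosl (1.74, SE 0.28, adjusted p = 4.96e-05) rose, 2 of 7 costimulation and checkpoint genes, and Lag3 stood at 0.38 (adjusted p = 0.404). Antigen processing gave 3 of 7 higher, led by Ctsz (0.50, SE 0.09, adjusted p = 0.000157), and 1 lower, Ctsl (-0.83, SE 0.16, adjusted p = 0.000299). Turnover genes gave 1 of 3 lower (March8, -0.65, SE 0.14, adjusted p = 0.000663), MHC class I genes 2 of 10 higher and 1 lower, and other class II genes 0 of 3. Among the cell type lists, dendritic cell markers gave 3 of 9 higher and 0 lower, macrophage markers 0 of 15 higher and 2 lower, B cell markers 0 of 5 higher and 1 lower, and T cell markers 0 of 8, with Cd4 at -0.65 (adjusted p = 0.165). Endothelial markers gave 3 of 8 higher and 1 lower, hepatocyte markers 2 of 10 higher and 4 lower. Summed macrophage markers had a median of 378 CPM and dendritic cell markers of 19.7 CPM in these tumours, and their part in the class II values was not tested.

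Control DEN tumours were compared with control livers, which are also the reference of the diet comparison. Here 5 of 5 tumours exceeded the control liver median for Cd74, H2-Aa, H2-Ab1, H2-Eb1, H2-DMa, H2-DMb1 and Ciita, and 5 of 5 lay below it for Cd86. The ratio of medians was 5.74 for H2-Eb1, 4.04 for Ciita, 3.89 for H2-Ab1, 3.26 for Cd74 and 0.750 for Cd86. The ranges overlapped: from 7 (H2-DMb1) to 10 (Ciita) of 12 livers lay below the lowest tumour for the 7 members other than Cd86, and only T19 for H2-Ab1 and T17 for H2-Eb1 exceeded every control liver.

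In edgeR 3 of 8 members were higher and 0 lower, where 27.3% of 14731 genes were higher and 24.4% lower, so the count is close to that of genes in general. The 3 were H2-Eb1 (1.60, SE 0.53, adjusted p = 0.0168), H2-Ab1 (1.29, SE 0.48, adjusted p = 0.0288) and H2-Aa (1.27, SE 0.51, adjusted p = 0.0446). H2-DMb1 (1.13, SE 0.47, adjusted p = 0.0507), Cd74 (1.07, SE 0.49, adjusted p = 0.0746) and Cd86 (-0.50, SE 0.21, adjusted p = 0.0522) fell short, as did Ciita (0.74, SE 0.72, adjusted p = 0.415) and H2-DMa (0.51, SE 0.53, adjusted p = 0.436). The median was 1.10 over the members and 0.03 over all genes.

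Single libraries changed these calls too. Over the 17 refits, 6986 to 7652 genes were called in either direction. The member counts below thus stand against large shares of all genes, which are not given for each refit. Without N6 6 members were higher, with Ciita at 1.90 (adjusted p = 0.000293), H2-DMb1 at 1.53 (adjusted p = 0.00161) and H2-DMa at 1.05 (adjusted p = 0.0220). Without T17 0 were higher, H2-Eb1 standing at 1.41 (adjusted p = 0.0535), and Cd86 was lower (-0.64, adjusted p = 0.0230). Without T19 1 member was higher, without T18 2, and without T20 4, with H2-DMb1 at 1.30 (adjusted p = 0.0335). Without T21 3 were higher, H2-DMb1 (adjusted p = 0.0489) in place of H2-Aa (adjusted p = 0.0525). Without N10 5 were higher, with Cd74 at 1.501 (adjusted p = 0.00247), and without N8 or N9 the same 3 as with all libraries. Without any other control liver only H2-Ab1 and H2-Eb1 were higher, and without N1 or N2 Cd86 was also lower (adjusted p = 0.0431 and 0.0317). Across these 17 refits H2-Eb1 was higher in 16, H2-Ab1 in 15, H2-Aa in 5, H2-DMb1 in 4 and Cd74, H2-DMa and Ciita in 1 each. DESeq2 called 3 higher, including Ciita at 1.80 (adjusted p = 1.56e-05), and Cd86 lower at -0.52 (adjusted p = 0.0339), and the cause of the different value for Ciita was not tested. With RLE scaling Cd86 was also lower (adjusted p = 0.0472), without a filter on low counts H2-Aa did not pass (adjusted p = 0.0528), and with all 6 groups fitted together only H2-Eb1 passed (adjusted p = 0.0210). Over all 21 alternatives the adjusted p ran from 1.56e-05 to 0.579 for Ciita, from 0.0230 to 0.303 for Cd86, from 0.00161 to 0.151 for H2-DMb1, from 0.0220 to 0.765 for H2-DMa, from 0.00182 to 0.142 for H2-Aa and from 0.000300 to 0.0535 for H2-Eb1.

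Some genes of the wider pathway changed more than the members did, in lists to be read against the 27.3% of all genes higher and 24.4% lower. Cd40 rose by 5.13 (SE 0.26, adjusted p = 1.16e-11), from a control liver median of 0.301 CPM (0.145 in N11 to 0.937 in N6) to 9.75 CPM in T19 up to 13.1 CPM in T17. With Icosl (2.98, SE 0.25, adjusted p = 1.37e-08) and Cd80 (2.25, SE 0.39, adjusted p = 9.25e-05) it made 3 of 7 costimulation and checkpoint genes higher and 0 lower, the opposite sign from that of Cd86. Ifngr1 (1.90, SE 0.09, adjusted p = 6.1e-12) led 5 of 14 class II transcription genes that were higher, with 0 lower. Antigen processing gave 3 of 7 higher, among them Lgmn (1.41, SE 0.19, adjusted p = 4.98e-06), and 1 lower, Ctsl (-0.96, SE 0.17, adjusted p = 0.000117). Cd83 was higher (1.53, SE 0.30, adjusted p = 0.000333) and March8 lower (-0.42, SE 0.12, adjusted p = 0.00787) among 3 turnover genes. H2-Ea-ps rose (1.16, SE 0.47, adjusted p = 0.0461), 1 of 3 other class II genes, and Nlrc5 (0.93, SE 0.32, adjusted p = 0.0194) and H2-K1 (0.58, SE 0.21, adjusted p = 0.0288) made 2 of 10 MHC class I genes higher, with 0 lower. Lag3 stood at -0.21 (adjusted p = 0.554).

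Dendritic cell markers gave 4 of 7 higher and 0 lower. Itgax rose by 3.66 (SE 0.46, adjusted p = 2.38e-06), from a control liver median of 0.300 CPM (0.0923 in N1 to 1.77 in N10) to 1.82 CPM (T20) to 7.47 CPM (T17), and all 5 tumours exceeded all 12 livers. Macrophage markers gave 2 of 15 higher and 5 lower, the latter led by Timd4 (-1.82, SE 0.31, adjusted p = 6.97e-05) and Clec4f (-1.59, SE 0.34, adjusted p = 0.000592), with summed medians of 274 CPM in the tumours and 400 CPM in the livers. T cell markers gave 3 of 5 higher, led by Cd3g (2.05, SE 0.49, adjusted p = 0.00181), and 1 lower, Cd4 (-1.86, SE 0.43, adjusted p = 0.00135). B cell markers gave 1 of 7 higher, Cr2 (2.80, SE 0.45, adjusted p = 3.71e-05), and 1 lower, Bank1 (-0.99, SE 0.27, adjusted p = 0.00424). Endothelial markers gave 4 of 8 higher and 2 lower, hepatocyte markers 2 of 10 higher and 4 lower, and the kidney marker Slc12a1, 1 of 1 tested, was higher (9.98, SE 0.43, adjusted p = 9.25e-13). The part of these cells in the class II levels was not tested.

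Between tumour groups, no member passed. For ALIOS DEN against spontaneous ALIOS tumours their log2 fold changes ran from 0.07 (Ciita) to 0.81 (H2-DMa), with adjusted p from 0.870 to 1. These positive values rest on T24: without it, 6 members were negative, down to -0.31 for Cd74, with H2-DMa at 0.02 and Cd86 at 0.05. In edgeR 0 members and 0 of 14845 genes passed (0%), while 0 members and 1079 genes had an unadjusted p under 0.05, and DESeq2 called 0 members and 86 genes. For ALIOS DEN against control DEN tumours, the diet comparison inside DEN tumours, they ran from 0.40 (Ciita) to 0.93 (Cd86, SE 0.51, adjusted p = 0.694). In that comparison 0 members and 2 of 14944 genes passed in edgeR (0.0134%), 0 members and 1273 genes had an unadjusted p under 0.05, and DESeq2 called 0 members and 152 genes. For Cd86, 6 of 8 ALIOS DEN tumours exceeded the control DEN median. The members' medians were 0.32 and 0.57, against 0.00 and 0.04 over all genes. Without T24, Cd74 in the diet comparison stood at 0.02, against 0.75 with it, and the other members ran from -0.02 (H2-Aa) to 0.22 (Ciita), apart from Cd86 at 0.71. None of the other lists had a gene past the threshold in either comparison, the smallest adjusted p being 0.426 (Itgae) and 0.256 (Ctsz), genes picked for that rank.

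Whether the diet acted differently inside DEN tumours than outside tumours was tested directly as the difference of both diet effects, which again uses the control livers. Of the 8 members 0 passed in edgeR and 0 had an unadjusted p under 0.05, against 2.27% of 15606 genes (354 genes), 2617 genes at an unadjusted p under 0.05, and 0 members and 646 genes by DESeq2. Their values ran from -1.10 for H2-Eb1 (SE 0.80, adjusted p = 0.511) to 0.16 for Cd86 (SE 0.45, adjusted p = 0.900), with a median of -0.60 against 0.04 over all genes. Single libraries moved them far. Without T24, Cd74 went from -0.55 to -1.29, H2-DMa from 0.12 to -0.69 and H2-Eb1 to -1.62. Without N6, Ciita went from near 0 to -1.18, without N17 Cd74 stood at -0.31 and Ciita at 0.26, and without T17 H2-DMa stood at 0.39, but 0 members passed in any refit. So the larger diet effect on the class II chains outside tumours was not shown to differ from that inside DEN tumours. Among the other lists, 1 gene passed, the dendritic cell marker Itgax (-3.03, SE 0.70, adjusted p = 0.0182).

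Across non-tumour livers, the class II genes followed Ciita. Correlations were computed on log2 CPM with group means removed, with p from 100000 permutations, adjusted over 14 relations. In the 23 non-tumour livers Ciita correlated with H2-DMa (Pearson r = 0.948, Spearman rho = 0.883), H2-DMb1 (r = 0.895, rho = 0.888), H2-Ab1 (r = 0.848, rho = 0.879) and Cd74 (r = 0.807, rho = 0.881). H2-Aa (r = 0.803, rho = 0.885) and H2-Eb1 (r = 0.791, rho = 0.890) were close behind. The permutation p was 1e-05, the smallest that they can give, for each r and rho of these 6 genes except the r of Cd74 (2e-05), and the adjusted p were 1.27e-05 to 2.15e-05 for r. Without N6 and N17, the 2 livers farthest from the Ciita median, r lay between 0.866 and 0.909 for the 6 genes.

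Cd86 did not follow in the livers. Its r with Ciita was 0.339 (permutation p = 0.113) and its rho 0.205 (permutation p = 0.347), and r was 0.420 without N6 and N17. Without N6 alone r was 0.469 (permutation p = 0.0284). Within control livers (n = 12) r was 0.128 (permutation p = 0.653) and within ALIOS livers (n = 11) 0.567 (permutation p = 0.0702), while the other 6 genes had r from 0.696 to 0.953 and from 0.928 to 0.943 in those groups.

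In tumours the relation is given for the 13 DEN tumours, a choice made after seeing the data. The other 7 of the 14 relations took in 25 tumours, and since the spontaneous ALIOS tumours fell on 2 sides of a gap, no r over them is given. In the DEN tumours all 7 genes followed Ciita. For the class II chains, Cd74 and the DM chains r was 0.894 to 0.932 (permutation p of 1e-05 to 5e-05, adjusted over 7 relations 3.5e-05 to 5.83e-05) and rho 0.929 to 0.962 (permutation p of 1e-05 to 2e-05). For Cd86 r was 0.839 (permutation p = 0.00034) and rho 0.786 (permutation p = 0.00226). Without T16 and T26, the DEN tumours farthest from the Ciita median, r was 0.932 to 0.982 for the 6 genes and 0.721 for Cd86. Within the 8 ALIOS DEN tumours the exact permutation test gave r of 0.895 to 0.937 for the 6 and 0.923 for Cd86 (exact p = 0.000198). Whether Ciita and its targets are related within the spontaneous ALIOS tumours, apart from the gap, was not tested. In bulk tissue such a relation would also follow from varying numbers of cells that make all these genes, and which of these holds was not tested.

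**Figure D5:**
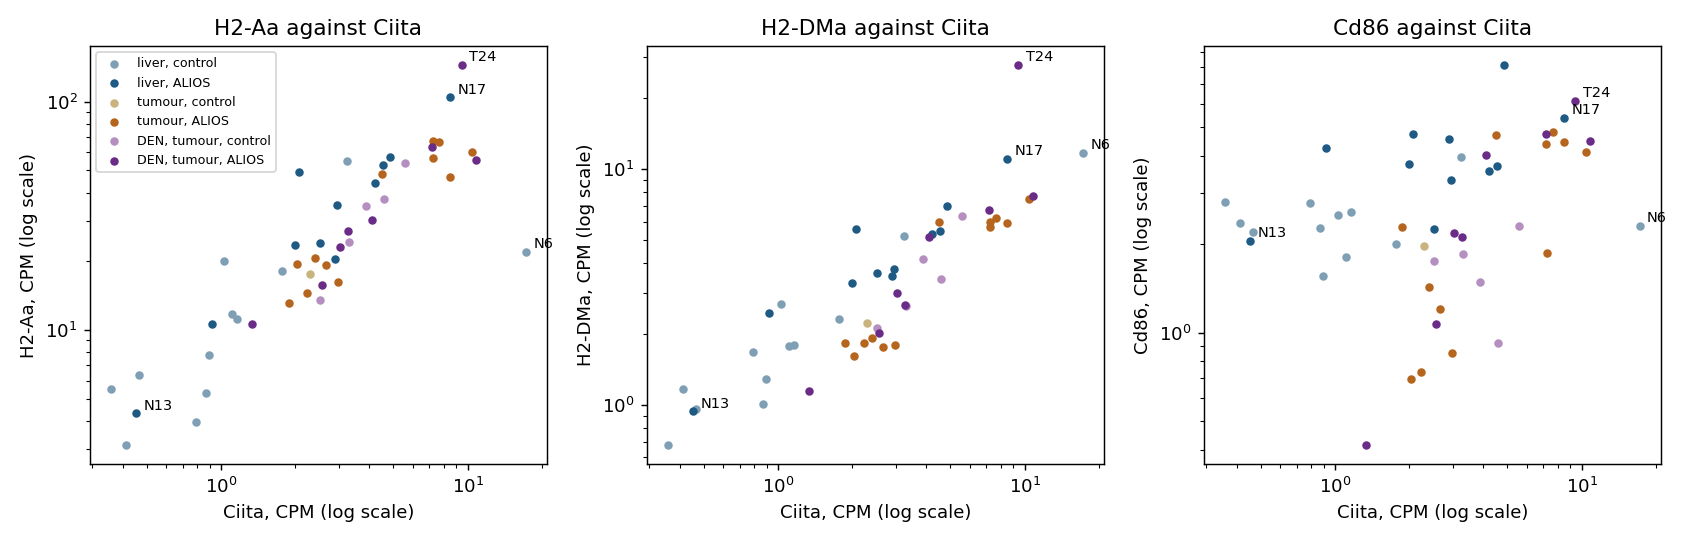
CPM of H2-Aa, H2-DMa and Cd86 against CPM of Ciita, both on log axes, each point a library coloured by group. H2-Aa and H2-DMa rise with Ciita in livers and tumours, N6 lies far right at 17.2 CPM of Ciita, and Cd86 is scattered in the livers.

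The genes most like the members were sought among 17728 genes by Spearman correlation with the mean z score of the 8 members, group means removed. The score contains the members themselves, which had rho of 0.910 to 0.981 in the livers and 0.932 to 0.959 in the tumours, except Cd86 with 0.357 in the livers and 0.849 in the tumours. Over the 23 non-tumour livers the non-members most alike included H2-Ea-ps (rho = 0.976), H2-DMb2 (0.930), Itga4 (0.895), Skap1 (0.895), H2-Q4 (0.884), BC094916 (0.883) and Psmb9 (0.882). Over the 25 tumours, both sides of the gap among them, they were H2-Ea-ps (rho = 0.966), Myo1g (0.947), Ncf4 (0.944), Zbp1 (0.942), Cd52 (0.941), Cd72 (0.941), Il10ra (0.940) and H2-DMb2 (0.936). H2-Ea-ps headed both lists, and H2-DMb2 was in both. Among genes of the fixed lists, picked here after their values had been seen, Irf8 had rho of 0.634 in the livers and 0.909 in the tumours, C1qa 0.524 and 0.869, Itgax 0.626 and 0.669, and Alb -0.159 and -0.589.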

How the data were processed

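Counts were used as deposited: the authors aligned stranded paired reads to mm10 with STAR and counted exon reads per gene with HTSeq and Gencode M6. The versions of both tools, and the strand option of the counting, were not given, so counts of Ciita and H2-DMa may include reads of the overlapping Dexi and Brd2.

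Each comparison was fitted on only the groups compared with edgeR 4.0.16 (quasi-likelihood test, filterByExpr, TMM) in R 4.3.3 and adjusted (Benjamini-Hochberg) over all genes tested, two-sided. DESeq2 1.42.0 was the alternative tool, and the replicate block was an added factor in edgeR. Correlations used scipy 1.17.1 with two-sided permutation tests, and figures matplotlib 3.10.9. The log2 CPM carried a prior count of 2. The code was tested on simulated data. p-values measure the spread between samples, since the labels do not tie samples to mice.

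The members and lists were chosen with earlier results of these data known. The lists were other class II chains and loading, antigen processing, class II transcription, class II turnover, costimulation and checkpoint, MHC class I, and dendritic cell, B cell, macrophage, T cell, endothelial, hepatocyte and kidney markers. Named from each were at most 4 genes past the threshold with the smallest p, the most abundant gene, Ifng, Cd4 and Lag3, with exceptions marked. No pair of libraries in a group was a duplicate (smallest chi-square per gene 11.99 over 237 pairs).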

Additional observations from a re-analysis of the deposited data

Results flagged for a closer look

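Among 30 combinations of a summed gene list and a group of 4 to 10 samples, 1 had a sample far from the others, where 1.5 are expected by chance. It was the summed MHC class I level of control DEN tumours, in which T21 was lowest (2702 CPM against a median of 3561 CPM) and its gap to the next tumour took 0.865 of the group's range on the log2 scale.

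T1, the ALIOS tumour used in no comparison, had more reads of 5 members than any control liver, on CPM without TMM scaling. Cd74 was at 210.564 CPM against at most 165.6 CPM, H2-Aa at 77.2056 against 47.3 CPM, H2-Ab1 at 27.6926 against 17.8 CPM, H2-Eb1 at 68.0637 against 31.99 CPM and H2-DMb1 at 2.93608 against 2.70 CPM. Ciita (6.64 CPM), H2-DMa (6.77 CPM) and Cd86 (1.94 CPM) were within the range of control livers. On the same scale T1 had 37.9 CPM of the hepatocyte gene Alb, against a control liver median of 69379 CPM. It had 35347 CPM of the kidney gene Kap, 4922 CPM of Slc34a1 and 1812 CPM of Umod, which had a median of 0 CPM in control livers. What T1 contains was not tested.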

How the results depend on the processing

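No fold change of a member that passed a threshold reversed. Leaving out each library in turn (151 refits), 1134 of 1208 fold changes kept their side of the threshold, 56 lost it and 18 gained it; under the other alternatives it was 242, 9 and 5 of 256. Members called for diet in non-tumour liver ranged from 1 (without N17, among others) to 7 (without N6) and genes from 949 (without N17) to 2343 (without N13). For control DEN tumours members ranged from 1 (without T17 or T19) to 6 (without N6). Genes called ranged from 0 to 19 (without T22) for diet in DEN tumours, from 0 to 15 (without T22) for DEN against spontaneous tumours, and from 174 (without T17) to 732 (without T24) for the difference of diet effects, with 0 members throughout. Refits without control livers for control DEN tumours, without ALIOS livers for ALIOS DEN tumours, without spontaneous for DEN against spontaneous tumours, and without livers or ALIOS DEN tumours other than T24 for the difference of diet effects, without N6 or T24 in the correlations, and over the DEN tumours alone in them, were added after seeing the data.

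DESeq2 called 2451 genes for diet in non-tumour liver, 86 for DEN against spontaneous tumours, 152 for diet in DEN tumours and 646 for the difference. With all 6 groups fitted together the counts were 623, 403, 296 and 220, with 1 member for diet in non-tumour liver and 1 for control DEN tumours. Without a filter on low counts 2 members passed for diet in non-tumour liver and 1 gene for diet in DEN tumours, more genes being tested. The cause of the other changes was not tested. The correlation of Ciita with Cd86 in livers without N6 was r = 0.4686, and 48 of 49 correlations kept their side under the alternatives. With T1 kept, spontaneous ALIOS tumours gave 4059 genes higher and 2624 lower, in place of 3812 and 3675, and 0 members.

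With library number as a replicate block, 538 genes passed for spontaneous and 1515 for DEN tumours on ALIOS, against 7487 and 6851 without it, and 0 members. Only 2 and 4 numbers were shared, and the r of libraries sharing a number was between -0.167 and 0.0761, so these numbers are not taken to mark the same mouse.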
